A study of Homo sapiens with 12 samples.

Results

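MIA PaCa-2 cells, an established line from a human pancreatic carcinoma, were grown for 48 h in 40 or 2 mM L-glutamine without gemcitabine, and their total RNA was sequenced in 3 libraries a side. These 6 of the 12 libraries of the series are the comparison described here, chosen by the labelled glutamine and drug levels alone. The 6 others repeat both glutamine levels with 0.5 µM gemcitabine, a deoxycytidine analogue used against pancreatic cancer. They enter the level filter and the estimate of spread that all groups share in the fit. Their own values are given only where the glutamine response is set beside that of treated cells. Both groups share the line, labelled wild type, a glutamine-free RPMI 1640 medium to which L-glutamine was added back, the 48 h and a gemcitabine level of 0 µM, so they differ by label only in glutamine. The series design calls the 3 libraries of a group biological replicates. Nothing in the labels says whether the cultures came from separate passages, so p-values measure the spread between libraries, estimated over all 4 groups of the series. By its title the series is about amino acid transport and chemosensitivity under plentiful glutamine.

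Glutamine is a nitrogen and carbon source. Its amide nitrogen goes into purines, pyrimidines, asparagine and hexosamines, and its conversion to glutamate feeds the citric acid cycle, proline, glutathione and other amino acids. Carriers of the SLC1 and SLC38 families bring it into the cell, and exchangers such as SLC7A5 trade it for large neutral amino acids. Pancreatic cancer cells, MIA PaCa-2 among them, are known for their dependence on it.

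The values are reads scaled to about 1000000 a library (called RPM here) in 15090 listed genes. Their sums were 1012668 to 1021041 at 2 mM and 998053 to 1005723 at 40 mM, without overlap. With the drug they were 1009128 to 1011932 and 971668 to 974406. The deposited scaling was thus not to 1 fixed total, and it differed between the groups. Of these, 12789 reached 1 RPM in at least 3 of the 12 libraries and were tested. The 6 libraries held 22797503 to 27369377 reads. Mitochondrially encoded genes took 3.82 to 4.62% of RPM, with the groups overlapping. Of 7 markers of a pancreatic ductal cancer line, 6 had a row, and their summed level was 6812 to 6856 RPM at 2 mM and 5915 to 6161 RPM at 40 mM. KRT8, KRT18, KRT19, SOX9, MUC1 and VIM were those with a row. Of 14 markers of blood, endothelium and fibroblasts, 6 had a row, with a sum of 762 to 786 RPM at 2 mM and 883 to 911 RPM at 40 mM. COL1A2, a fibrillar collagen chain, made up nearly all of it, while COL1A1, LYZ, CD14 and CDH5 stayed under 1 RPM and none of 10 acinar and endocrine pancreas markers had a row.

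At 40 mM, 1076 genes were higher and 1166 were lower than at 2 mM (limma, adjusted p under 0.05, called below), which is 17.5% of those tested, 8.41% higher and 9.12% lower. A fit of the 6 libraries alone gave 851 higher and 950 lower. A fold change is given as the difference of log2(RPM + 1), 40 minus 2 mM, with its standard error, n = 3 libraries a group. Most changes were small. Among called genes 341 rises and 410 falls reached 1.2-fold, 14 and 44 reached 1.5-fold, and 1 and 2 reached 2-fold. The median change over all tested genes was 0.0016 on the RPM scale, and a scaling can itself hold the median near 0. The call depended on the level at which a gene was measured: 7.29% of the genes in the lowest of 4 equal bins by mean RPM were called, then 12.9%, 19.8%, and 30.2% in the highest bin, whose median standard error was 0.038 against 0.157 in the lowest. The shares called in the lists below stand against 17.5% of all tested genes and were not matched for level. For a list of abundant genes the 30.2% of the highest bin is the closer share. In that bin 407 of 3197 genes were higher and 559 lower. A list share near 17.5% can thus lie below that of other genes at its level. In 31.1% of tested genes the 3 libraries of one group all lay above the 3 of the other. Fewer cells of one kind and less RNA per cell cannot be told apart in such bulk samples. The filter fell between ZNF8-ERVK3-1 and WNT10A, at 1 RPM in their third-highest library, and LOC102723786 and C19orf73, at 0.9991 RPM.

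**Figure D1:**
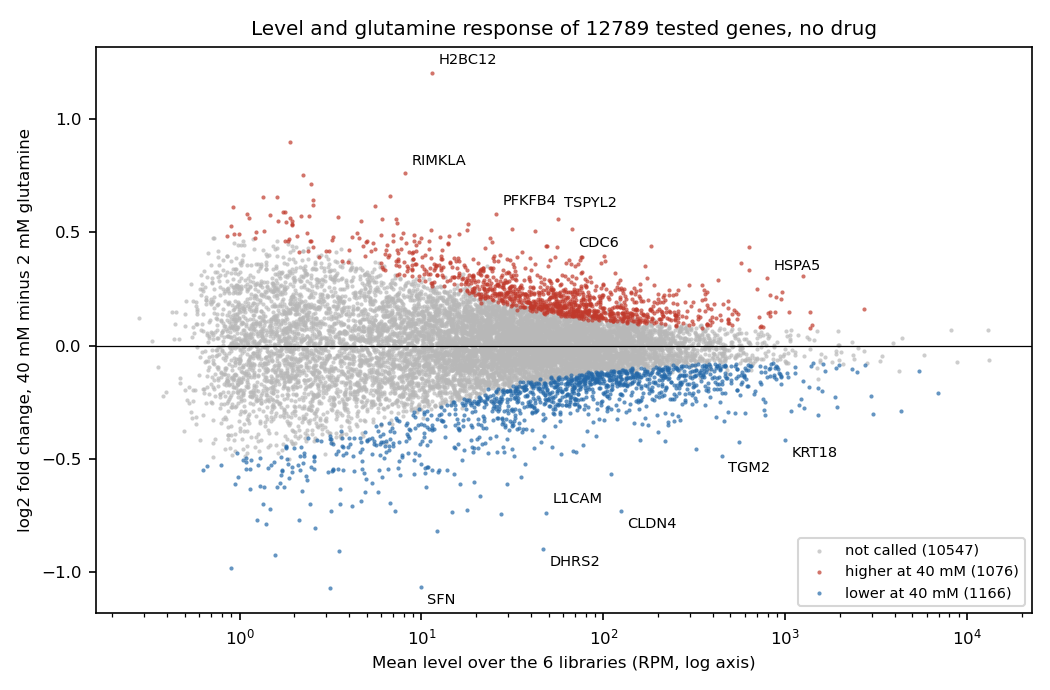
Each point is 1 of 12789 tested genes, placed by its mean level over the 6 libraries (RPM, log axis) and its log2 fold change, 40 minus 2 mM glutamine without gemcitabine. The 1076 genes called higher are red, the 1166 called lower blue and the 10547 others grey, and called changes are smaller at high level, where the errors are smaller.

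Known motifs stand ahead of the start sites of some members of the groups described below, and examples are shown here because the values of these genes follow. The 250 bases upstream of the RefSeq start sites (build GRCh38.p14) were searched on both strands for 6 motifs, and a match describes letters only, not a bound site. The E2F motif, bound by the factors that drive genes into DNA synthesis, was searched as TTTGGCGC, TTTCCCGC, TTTCGCGC or TTTGCCGC, forms that can overlap each other on opposite strands. It stood in 2.79% of 35116 promoters, in 4.67% of those of tested genes, and in 13 of 51 DNA replication genes. Capitals mark it in 4 replication genes that were higher at 40 mM.
PCNA, chr20:5126642-5126722, minus strand: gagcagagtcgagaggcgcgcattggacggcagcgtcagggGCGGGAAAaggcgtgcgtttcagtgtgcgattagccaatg
MCM6, chr2:135876503-135876613, minus strand: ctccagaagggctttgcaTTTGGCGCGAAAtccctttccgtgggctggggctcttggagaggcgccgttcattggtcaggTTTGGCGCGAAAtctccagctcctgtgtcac
MCM3, chr6:52284862-52284942, minus strand: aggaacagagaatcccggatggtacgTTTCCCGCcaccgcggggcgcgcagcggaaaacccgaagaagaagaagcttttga
POLA2, chr11:65261862-65261942, plus strand: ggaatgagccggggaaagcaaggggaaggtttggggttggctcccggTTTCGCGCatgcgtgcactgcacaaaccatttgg

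Of the replication genes with a promoter, 11 of 25 called higher and 2 of 25 not called held the motif. The endoplasmic reticulum stress element, CCAAT and CCACG with 9 bases of any kind between them, is the sequence through which ATF6 and its partners switch on chaperone genes. It was found in 0.074% of all promoters, in 0.142% of those of tested genes and in 7 of 41 genes of the endoplasmic reticulum list, 3 of the 15 called higher and 4 of the 25 not called. The 3 called higher are shown with the element in capitals, which CALR and CRELD2 carry on the other strand.
HSPA5, chr9:125241363-125241453, minus strand: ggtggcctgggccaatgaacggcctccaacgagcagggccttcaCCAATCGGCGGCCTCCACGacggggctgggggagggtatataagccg
CALR, chr19:12938364-12938444, plus strand: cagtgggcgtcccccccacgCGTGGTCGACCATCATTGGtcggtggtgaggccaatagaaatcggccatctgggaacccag
CRELD2, chr22:49918524-49918604, plus strand: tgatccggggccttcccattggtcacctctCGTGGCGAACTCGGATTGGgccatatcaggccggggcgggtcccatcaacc

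The heat shock element, searched as GAA, TTC and GAA or as TTC, GAA and TTC with 2 bases of any kind between units, stood in 0.441% of all promoters, in 0.304% of those of tested genes and in 3 of 33 heat shock protein genes. These 3, HSPA8, CHORDC1 and DNAJB6, were among 14 called lower, and 0 of 18 not called held it, and overlapping copies run together in CHORDC1. The interferon-stimulated response element, here a pair of GAAA units 2 bases apart, stood in 3.02% of all promoters, in 2.2% of those of tested genes and in 18 of 37 interferon-stimulated genes, in 4 of 8 called higher, 3 of 3 called lower and 11 of 26 not called. IFIT3, which was higher, and IFITM1, which was lower, both carry it.
HSPA8, chr11:123062146-123062226, minus strand: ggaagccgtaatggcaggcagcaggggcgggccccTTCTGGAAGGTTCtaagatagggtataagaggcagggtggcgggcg
CHORDC1, chr11:90223059-90223139, minus strand: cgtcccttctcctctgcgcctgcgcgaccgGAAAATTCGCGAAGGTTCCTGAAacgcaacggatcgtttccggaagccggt
IFIT3, chr10:89327822-89327902, plus strand: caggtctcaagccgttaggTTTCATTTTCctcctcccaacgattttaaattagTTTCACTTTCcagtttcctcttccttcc
IFITM1, chr11:313960-314030, plus strand: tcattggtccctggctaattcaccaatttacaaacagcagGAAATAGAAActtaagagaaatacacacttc

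TACGTG, a core of the hypoxia response element, was in 2.76% of all promoters, in 2.94% of those of tested genes and in 3 of 24 glycolysis genes. The AP-1 motif, TGAGTCA or TGACTCA, was in 4.2% of all promoters, in 2.44% of those of tested genes and in 0 of 26 immediate-early genes.

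Among genes with a mean of at least 5 RPM the largest rises, picked from called genes whose groups did not overlap, were spread over many functions. H2BC12, a histone H2B gene, rose most, by 1.20 ± 0.123, from 6.60 ± 1.25 to 16.4 ± 0.851 RPM (SD, n = 3), but near-identical H2B genes make its reads uncertain. RIMKLA, which joins N-acetylaspartate and glutamate into N-acetylaspartylglutamate, stood at 6.50, 5.06 and 5.78 RPM at 2 mM and 11.4, 10.2 and 9.75 RPM at 40 mM. Its 40 mM libraries all lay above the 2 mM ones, and the rise was 0.76 ± 0.106 (adjusted p = 3.05e-06). TSPYL2, a nucleosome assembly protein of the TSPY family linked to growth arrest, had 46.1, 44.2 and 45.8 RPM at 2 mM and 69.1, 66.6 and 66.1 RPM at 40 mM. Both groups were tight, and the rise was 0.56 ± 0.047 (adjusted p = 1.37e-10). VGF, a neuropeptide precursor, rose by 0.52 ± 0.061 and FAM111B, a protease gene known for its periodic expression in the cell cycle, by 0.51 ± 0.056. UPK3B, CCT6B, RAB17, N4BP2, ALPK3, TLR8-AS1, TMEM143 and TMEM18 completed the 15 largest rises with PFKFB4 and CDC6, at 0.51 to 0.66. UPK3B, CCT6B, RAB17, N4BP2 and ALPK3, at means of 5.57 to 7.32 RPM, lay in the lowest of the 4 level bins, where errors were largest. With a pseudocount of 5 the rises of UPK3B, CCT6B and RAB17 were 0.43, 0.38 and 0.35.

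The largest falls, picked in the same way, included regulators of epithelial cells and cell surface molecules. SFN, stratifin, an epithelial adaptor protein that can hold cells before mitosis, had 13.5, 15.6 and 12.4 RPM at 2 mM and 5.79, 6.59 and 5.83 RPM at 40 mM. The groups lay far apart, and the fall was 1.07 ± 0.105 (adjusted p = 2.76e-09), the largest among genes of at least 5 RPM. DHRS2, a short-chain dehydrogenase, had 60.9, 62.0 and 60.5 RPM at 2 mM and 33.7, 33.7 and 29.8 RPM at 40 mM and fell by 0.90 ± 0.06. L1CAM, a neural adhesion molecule also made by invasive tumours, had 63.5, 60.0 and 59.8 RPM at 2 mM and 38.1, 33.5 and 37.1 RPM at 40 mM and fell by 0.74 ± 0.061 (adjusted p = 1.14e-10). RIPK4, a kinase of epidermal differentiation, went from 34.7 ± 0.226 to 20.4 ± 1.09 RPM and PROCR, the endothelial protein C receptor, from 18.5 ± 1.61 to 10.8 ± 1.28 RPM (SD, n = 3). NKD1, an inhibitor of Wnt signalling, SOX8, PEAR1, SLC2A3, AKNA, GRIN2C, ADGRG1, ETV4 and the noncoding LOC105374309 fell by 0.61 to 0.82. NKD1, PEAR1 and AKNA, at means of 5.78 to 7.12 RPM, lay in the lowest of the 4 level bins. With a pseudocount of 5 their values were −0.48, −0.44 and −0.40.

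The smallest p-values belonged to abundant genes, most of them lower. TGM2, tissue transglutaminase, which crosslinks matrix proteins, had 516, 546 and 516 RPM at 2 mM and 368, 381 and 376 RPM at 40 mM. No library of one group came near the other, and the fall was 0.49 ± 0.029 (adjusted p = 8.43e-14). STMN3, a microtubule destabiliser, fell by 0.42 ± 0.028, PHLDB2, a protein of the cell cortex, by 0.46 ± 0.036, and ENC1, an actin-binding kelch protein, by 0.42 ± 0.034. H2AX, the histone variant phosphorylated at DNA breaks, rose by 0.44 ± 0.034. WARS1, the cytosolic tryptophanyl-tRNA synthetase, had 500.1, 505 and 499.9 RPM at 2 mM and 626, 674 and 638 RPM at 40 mM and rose by 0.36 ± 0.028 (adjusted p = 2.7e-11).

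**Figure D2:**
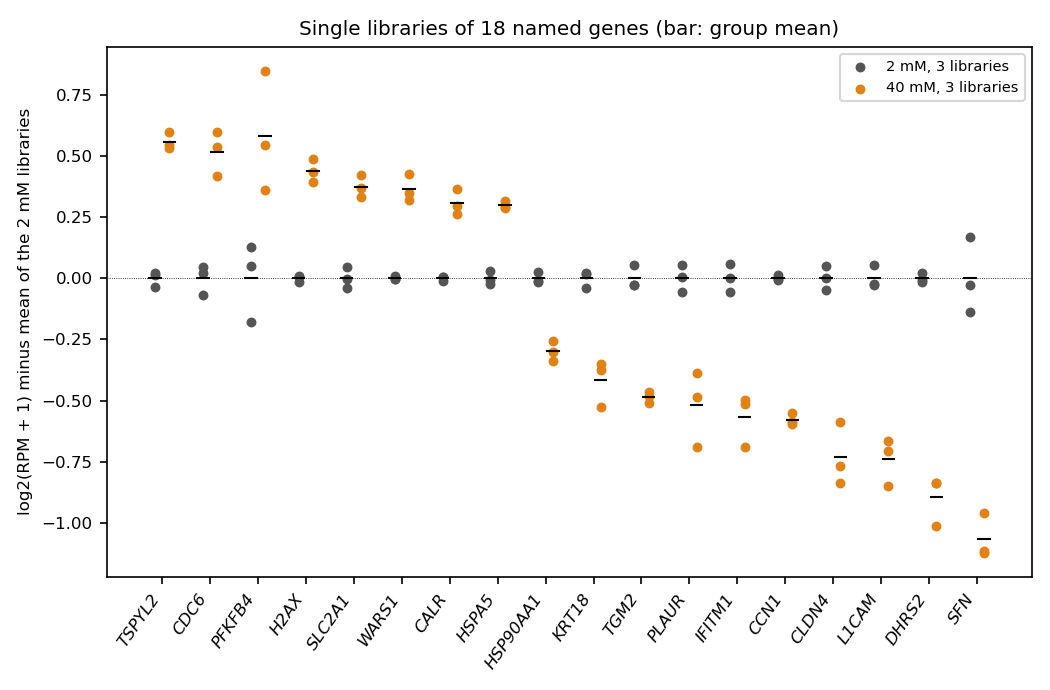
The value of each single library is shown for 18 genes named in the text, as log2(RPM + 1) minus the mean of the 3 libraries at 2 mM glutamine (grey points), with the 40 mM libraries in orange and bars at group means. In each of the 18 genes the 3 libraries at 40 mM lie on one side of the 3 at 2 mM. Naming genes by group separation or small p favours this, and 31.1% of all tested genes show it.

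Carriers of glutamine and other neutral amino acids showed no common direction. Of 18 tested, 3 were higher, 2 were lower and 13 did not pass (27.8% called, against 17.5% of all tested genes), and their median change was 0.01. SLC7A5, the light chain of the LAT1 exchanger, had 451, 504 and 474 RPM at 2 mM and 404, 403 and 394 RPM at 40 mM. It fell by 0.25 ± 0.032 (adjusted p = 9.05e-07), and its groups did not overlap. SLC1A5, the main glutamine importer of many tumours, fell by 0.13 ± 0.032. In contrast SLC1A4, a related carrier of alanine, serine and cysteine, rose by 0.42 ± 0.105, and SLC36A4, a proton-independent carrier of proline and tryptophan, by 0.25 ± 0.071. SLC38A1 (−0.01 ± 0.034) and SLC38A2 (0.02 ± 0.027), the sodium-coupled glutamine carriers, did not pass, nor did SLC3A2, the heavy chain of LAT1 (−0.06 ± 0.039). Among 12 carriers of acidic amino acids and of the mitochondrial membrane 4 were higher and 0 lower (33.3% called). UCP2, which carries malate and other acids out of mitochondria, rose by 0.34 ± 0.068, SLC25A13, the aspartate-glutamate carrier citrin, by 0.23 ± 0.05, SLC25A44, which imports branched-chain amino acids, by 0.26 ± 0.054, and the dicarboxylate carrier SLC25A10 by 0.22 ± 0.045.

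GFPT2, which spends glutamine on glucosamine 6-phosphate at the head of the hexosamine pathway, had 28.2, 26.6 and 27.1 RPM at 2 mM and 19.6, 20.7 and 17.9 RPM at 40 mM. It fell by 0.47 ± 0.068 (adjusted p = 5.15e-06), with no overlap. Its relative GFPT1 did not pass (−0.06 ± 0.041). GLUL, which makes glutamine (0.18 ± 0.17), and ASNS, which takes its amide nitrogen for asparagine (−0.26 ± 0.147), did not pass. ASS1, which builds argininosuccinate from aspartate, fell by 0.30 ± 0.048, and GPT2, the mitochondrial alanine transaminase, rose by 0.20 ± 0.04. Of 26 genes of glutamine, ammonia and proline metabolism, 2 were higher, 4 were lower and 20 did not pass (23.1% called, against 17.5% of all tested genes, and the higher count was 1 without replicate 2 at 2 mM or without replicate 3 at 40 mM). Later in the hexosamine pathway, UAP1 and GNPNAT1 fell by 0.20 and 0.18, while NAGK and GNE, which handle salvaged N-acetylglucosamine and start sialic acid, rose by 0.38 and 0.23. OGT, which places N-acetylglucosamine on proteins, rose by 0.16 and did not pass without replicate 2 at 2 mM (0.10, adjusted p = 0.0635).

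Of 15 genes of purine synthesis 0 were higher, 5 were lower and 10 did not pass (33.3% called), and of 13 of pyrimidine and CTP synthesis 2 were higher, 0 were lower and 11 did not pass (15.4% called, and the higher count was 1 without replicate 1 or 3 at 2 mM or without replicate 3 at 40 mM). The share called among all tested genes was 17.5%. IMPDH2, the rate-limiting step to guanine nucleotides, had 293, 296 and 301 RPM at 2 mM and 248, 254 and 242 RPM at 40 mM. It fell by 0.26 ± 0.03 (adjusted p = 8.09e-08), and its isoform IMPDH1 by 0.24 ± 0.034. PRPS2, which makes the ribose donor, fell by 0.17 and GART, of the purine ring pathway, by 0.14. PPAT, the first committed step and a glutamine user, did not pass (−0.10 ± 0.046), and CAD, which takes glutamine into pyrimidines, stood at 0.01 ± 0.029. The polyamine list leaned down more: 8 of 16 were lower and 0 higher (50% called), with a median of −0.14. SMS, spermine synthase, fell by 0.25 ± 0.026 (adjusted p = 8.43e-09), ODC1, the first enzyme of the pathway, by 0.24 ± 0.041, its antizyme OAZ1 by 0.16 ± 0.029, and the catabolic enzymes SMOX and SAT1 by 0.28 and 0.24. Synthesis and breakdown genes were thus both among those that fell.

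**Figure D3:**
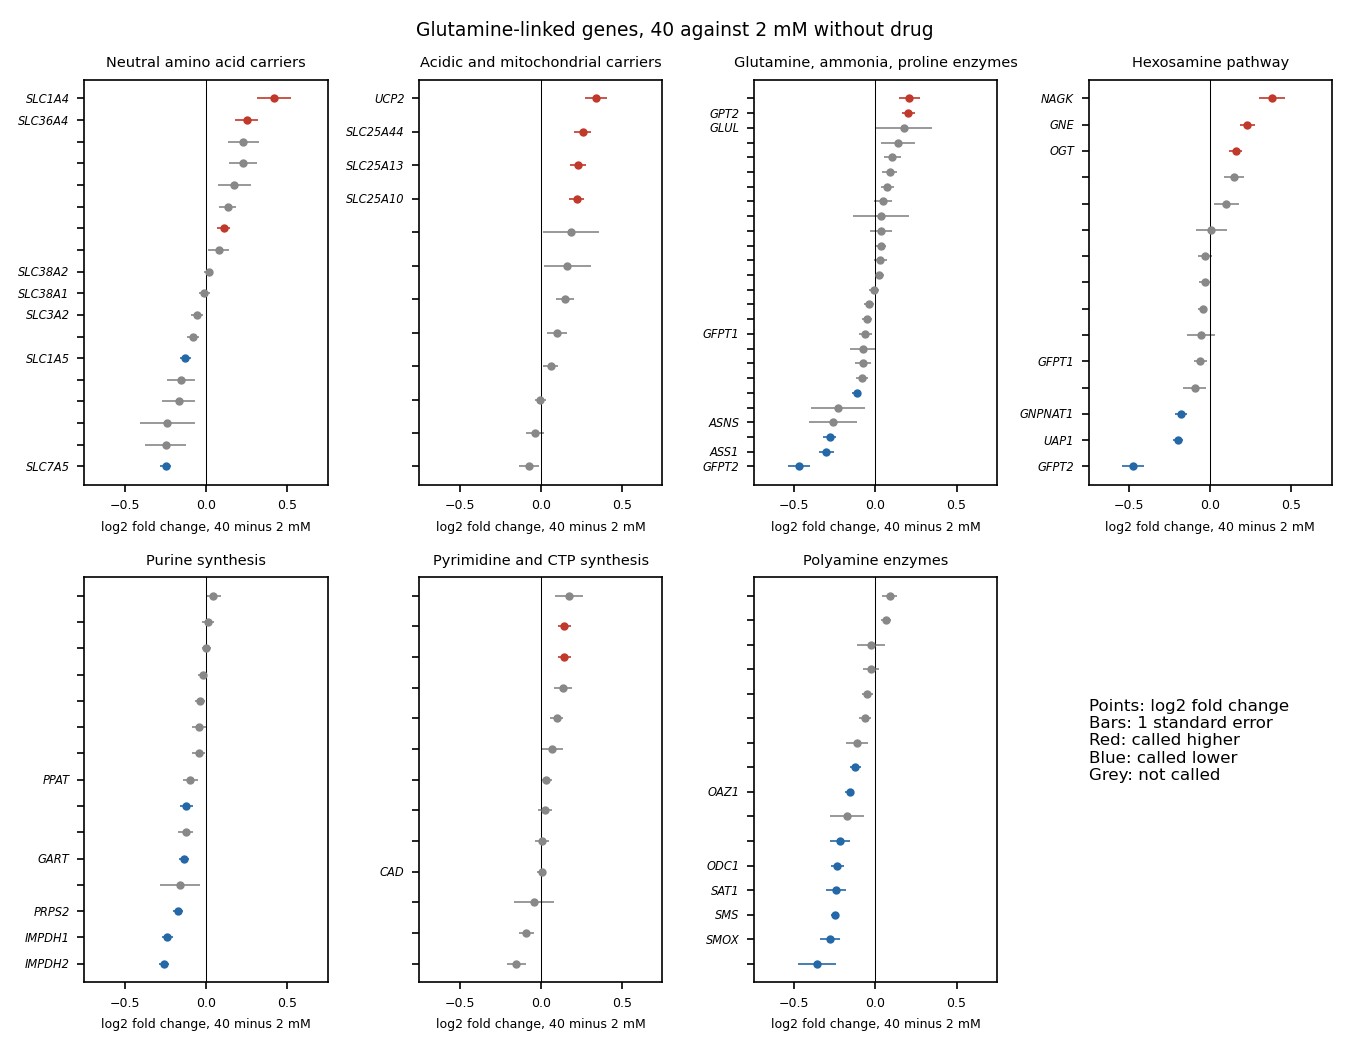
Log2 fold changes (40 minus 2 mM, points) with 1 standard error (bars) for all tested members of 7 groups of glutamine-linked genes, with names for those in the text, red where called higher, blue where called lower and grey otherwise. Purine and polyamine genes hold no red point, while neutral amino acid carriers and hexosamine genes hold both colours.

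Genes of amino acid sensing that passed moved in both directions. Of 28 targets of ATF4, the factor made when amino acids run short, 3 were higher, 5 were lower and 20 did not pass (28.6% called, and the lower count was 3 without replicate 2 at 2 mM or without replicate 3 at 40 mM or with no level filter or with quantile normalization), against 17.5% of all tested genes. ATF4 itself did not pass (−0.11 ± 0.039) but did without replicate 1 at 2 mM (−0.13, adjusted p = 0.0375), replicate 3 at 2 mM (−0.13, adjusted p = 0.0406) or replicate 1 at 40 mM (−0.13, adjusted p = 0.0359), with a filter of 5 RPM (−0.11, adjusted p = 0.0498), median-of-ratios scaling (−0.11, adjusted p = 0.0471) or robust moderation (−0.11, adjusted p = 0.038). TRIB3 (−0.06 ± 0.058) and DDIT4 (−0.02 ± 0.055) did not pass. PCK2, the mitochondrial phosphoenolpyruvate carboxykinase, fell by 0.23 ± 0.036 and XPOT, which exports tRNA from the nucleus, by 0.17 ± 0.034. In the mTORC1 list 5 of 35 were higher and 2 lower (20% called), near the 17.5% of all tested genes (the higher count was 3 without replicate 3 at 2 mM or without replicate 2 at 40 mM or in a fit of the 6 libraries alone, and the lower count was 1 without replicate 1 or 3 at 2 mM or without replicate 1 or 2 at 40 mM or with quantile normalization or in a fit of the 6 libraries alone). AKT1S1, the mTORC1 inhibitor PRAS40, rose by 0.24 ± 0.041, the mTOR partner MLST8 by 0.26 ± 0.053 and the GTPase RRAGA by 0.22 ± 0.054, while CASTOR1, the arginine sensor, fell by 0.37 ± 0.097. TXNIP, an arrestin-like gene that responds to sugar phosphates and restrains glucose uptake, had 194, 168 and 189 RPM at 2 mM and 152, 139 and 142 RPM at 40 mM and fell by 0.35 ± 0.046 (adjusted p = 1.29e-06).

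Genes of osmolyte transport were examined because 40 mM adds solute as well as glutamine. No group with another solute is among the 12 libraries, so glutamine and added solute cannot be told apart. Of 28 tested, 5 were higher, 3 were lower and 20 did not pass (28.6% called, and the lower count was 1 without replicate 1 at 2 mM or without replicate 2 at 40 mM), against 17.5% of all tested genes. SGK1, a kinase induced by hypertonic medium, had 215, 201 and 218 RPM at 2 mM and 247, 249.7 and 255 RPM at 40 mM and rose by 0.24 ± 0.035. SLC5A3, the inositol carrier, rose by 0.25 ± 0.048 and S100A4, a calcium-binding protein, by 0.27 ± 0.049, the latter not called with robust moderation (0.27, adjusted p = 0.0508). SLC6A6, the taurine carrier, moved the other way, at −0.29 ± 0.094, a call that ended without replicate 1 or 3 at 2 mM or any 1 replicate at 40 mM (adjusted p of 0.0565 to 0.122). AKR1B1, which makes sorbitol (0.26 ± 0.104), did not pass except without replicate 3 at 40 mM (0.36, adjusted p = 0.0271). NFAT5, the tonicity factor (−0.07 ± 0.045), did not pass except without replicate 3 at 2 mM (−0.14, adjusted p = 0.0213).

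DNA replication genes that passed were higher, with 1 exception. Of 60 tested, 30 were higher, 1 was lower and 29 did not pass (51.7% called), against 8.41% higher and 9.12% lower among all tested genes (the lower count was 0 without replicate 2 at 2 mM and 2 without replicate 1 at 40 mM), and their median change was 0.11 against 0.0016. CDC6, which loads the replicative helicase onto origins, had 57.0, 56.1 and 52.6 RPM at 2 mM and 74.1, 80.4 and 84.1 RPM at 40 mM. Every 40 mM library lay above every 2 mM library, and the rise was 0.52 ± 0.048 (adjusted p = 7.89e-10). The helicase subunits MCM4 (0.20 ± 0.029), MCM5 (0.25 ± 0.037), MCM3 (0.15 ± 0.03) and MCM6 (0.15 ± 0.031) rose, as did GINS2 (0.28 ± 0.046), part of the complex that completes the helicase, while MCM2 did not pass (0.07 ± 0.032). PCNA, the sliding clamp, had 98.1, 100.2 and 100.3 RPM at 2 mM and 112, 115 and 119 RPM at 40 mM and rose by 0.21 ± 0.036 (adjusted p = 7.22e-05). Among the polymerase and lagging strand genes, POLA1 rose by 0.19 ± 0.039, POLA2 by 0.22 ± 0.057, FEN1, which removes flaps, by 0.26 ± 0.05 and LIG1, the ligase, by 0.22 ± 0.046. MCM10, CLSPN and TIMELESS, which hold the fork together, rose by 0.29, 0.27 and 0.25. Origin recognition was mixed: ORC1 and ORC6 rose by 0.26 and 0.18, and ORC2 stayed at 0.01 ± 0.05. Without replicate 3 at 40 mM, 19 members were higher.

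RRM2, the regulated subunit of ribonucleotide reductase, which makes the deoxynucleotides that gemcitabine competes with, had 229, 237 and 245 RPM at 2 mM and 275, 285 and 283 RPM at 40 mM and rose by 0.24 ± 0.031 (adjusted p = 6e-07). In the list of G1/S cyclins, E2F factors and nucleotide supply 13 of 36 were higher and 2 lower (41.7% called), with 7 higher without replicate 1 at 2 mM, 5 without replicate 3 at 2 mM, 6 without replicate 3 at 40 mM and 8 when the 6 libraries were fitted alone (the lower count was 1 without replicate 1 at 2 mM). DTL, which marks replication proteins for destruction, rose by 0.30 ± 0.045. RB1, the retinoblastoma brake on E2F, rose by 0.28 ± 0.052 and CDKN2C, an inhibitor of CDK4 and CDK6, by 0.34 ± 0.072, while CDK6 fell by 0.27 ± 0.053. CDKN1A, the inhibitor p21, went from 5.05 ± 0.724 to 3.40 ± 1.09 RPM (SD, n = 3) with a change of −0.49 ± 0.145, which was not called without replicate 1 at 2 mM (−0.41, adjusted p = 0.0896) or without replicate 2 at 40 mM (−0.26, adjusted p = 0.203), and was −0.27 with a pseudocount of 5. In the repair list 10 of 49 were higher and 1 lower (22.4% called, against 17.5% of all tested genes, and the lower count was 2 without replicate 2 at 40 mM). MSH6 of mismatch repair rose by 0.20 and NBN, a sensor of double-strand breaks, by 0.35, and CHEK2, a checkpoint kinase, fell by 0.23.

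Histone genes split. H2AX had 155, 152 and 155 RPM at 2 mM and 203, 209 and 217 RPM at 40 mM and was among the surest rises. NPAT and CASP8AP2, which switch on replicative histone genes, rose by 0.23 ± 0.057 and 0.25 ± 0.046. Of 24 histone and histone-regulating genes tested, 7 were higher, 5 were lower and 12 did not pass (50% called), but for the histones themselves near-identical copies make single values uncertain (the lower count was 1 without replicate 3 at 2 mM or without replicate 2 at 40 mM and 2 without replicate 2 at 2 mM and 3 without replicate 1 at 2 mM or with quantile normalization or in a fit of the 6 libraries alone).

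Mitotic genes that passed were mostly lower. Of 62 tested, 4 were higher, 17 were lower and 41 did not pass (33.9% called), against 8.41% higher and 9.12% lower among all tested genes. CKS2, a partner of the mitotic kinase, had 105, 109 and 103 RPM at 2 mM and 84.4, 81.7 and 86.8 RPM at 40 mM. Its libraries at 40 mM all lay lower, by 0.32 ± 0.041 (adjusted p = 5.71e-07). CDC20, which activates the anaphase ligase, fell by 0.25 ± 0.033 and the checkpoint kinase BUB1 by 0.25 ± 0.034. PTTG1, known as securin, fell by 0.23 ± 0.038, and NEK2, a centrosome kinase, by 0.25 ± 0.046. FOXM1, the factor that drives many mitotic genes, rose by 0.18 ± 0.033 and TOP2A, topoisomerase of mitotic chromosomes, by 0.13 ± 0.029. CDK1 stayed at −0.01 ± 0.04. The lower count was 8 without replicate 2 at 2 mM, 10 without replicate 1 at 40 mM and 10 when the 6 libraries were fitted alone, and the higher count was 2 without replicate 1 or without replicate 3 at 2 mM or with the 6 libraries alone.

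Among folding genes that passed, those of the endoplasmic reticulum were mostly higher and those of the cytosol and mitochondria mostly lower. Of 45 genes of the endoplasmic reticulum and its unfolded protein response, 17 were higher, 1 was lower and 27 did not pass (40% called), with a median of 0.11, against 8.41% higher among all tested genes (the lower count was 0 without replicate 1 or 2 or 3 at 2 mM or without replicate 1 or 2 at 40 mM or with no level filter or with quantile normalization or with voom weights or in a fit of the 6 libraries alone). HSPA5, the luminal chaperone BiP, had 712, 731 and 703 RPM at 2 mM and 872, 890.1 and 875 RPM at 40 mM. The rise was 0.30 ± 0.026 (adjusted p = 3.07e-10). CALR, calreticulin, a chaperone of glycoproteins, had 1129, 1117 and 1129 RPM at 2 mM and 1448, 1351 and 1379 RPM at 40 mM and rose by 0.31 ± 0.027. The disulfide isomerases P4HB, PDIA4, PDIA3 and PDIA6 rose by 0.25, 0.20, 0.15 and 0.13. CRELD2, a secreted stress protein, rose by 0.38 ± 0.071, and DERL1 and EDEM1, which pass misfolded proteins to degradation, by 0.26 and 0.20. These members serve folding, oxidation, translocation and disposal alike. XBP1 (0.10 ± 0.045) and HSP90B1 (0.06 ± 0.027) did not pass.

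Among 37 cytosolic and mitochondrial heat shock genes 1 was higher, 15 were lower and 21 did not pass (43.2% called), with a median of −0.09 (the higher count was 0 without replicate 1 or 3 at 2 mM or without replicate 2 or 3 at 40 mM or with quantile normalization or in a fit of the 6 libraries alone). HSP90AA1, the inducible HSP90, had 3314, 3399 and 3298 RPM at 2 mM and 2638, 2795 and 2706 RPM at 40 mM. All 3 libraries at 40 mM were lower, by 0.30 ± 0.026 (adjusted p = 2.77e-10). HSPD1, the mitochondrial chaperonin, had 1188, 1194 and 1181 RPM at 2 mM and 949.7, 1009 and 959 RPM at 40 mM and fell by 0.29 ± 0.027 (adjusted p = 1.08e-09). HSPA8, the constitutive HSC70 whose promoter is shown above, fell by 0.20 ± 0.027, CHORDC1, an HSP90 partner, by 0.28 ± 0.053, the cochaperones FKBP4 and PTGES3 by 0.19 and 0.17, and HSPB1 by 0.17. The stress-inducible HSPA1A (−0.20 ± 0.122) and HSPA1B (−0.11 ± 0.111), which share nearly all their sequence, and BAG3 (0.05 ± 0.039) did not pass. Of 15 genes of the cytosolic chaperonin and prefoldin 1 was higher, 5 were lower and 9 did not pass (40% called, and the lower count was 2 without replicate 2 at 2 mM or with quantile normalization and 3 without replicate 3 at 40 mM or in a fit of the 6 libraries alone), and of 39 proteasome genes 0 were higher, 6 were lower and 33 did not pass (15.4% called), near the 17.5% of all tested genes (the lower count was 3 without replicate 2 at 2 mM or without replicate 3 at 40 mM or with quantile normalization, and the higher count was 1 without replicate 1 at 40 mM or with a filter of 5 RPM or with quantile normalization or with robust moderation). In the citric acid cycle list, of 32 tested, 5 were higher, 5 were lower and 22 did not pass (31.2% called, and the lower count was 2 without replicate 2 at 2 mM and 3 without replicate 3 at 2 mM or without replicate 3 at 40 mM).

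Glycolysis genes that passed were higher, with 1 exception. Of 27 tested, 11 were higher, 1 was lower and 15 did not pass (44.4% called), and the median was 0.14 (the lower count was 2 with voom weights or with robust moderation and 3 without replicate 1 at 40 mM). SLC2A1, the main glucose carrier GLUT1, had 91.3, 88.4 and 85.9 RPM at 2 mM and 119, 112 and 115 RPM at 40 mM. The rise was 0.38 ± 0.041 (adjusted p = 3.04e-08), with no overlap. SLC2A3, the neuronal-type glucose carrier, went the other way, with all 3 libraries at 40 mM below those at 2 mM and a fall of 0.66 ± 0.093 (adjusted p = 3.05e-06). PFKFB4, which sets the level of the activator of phosphofructokinase, had 20.9, 17.7 and 22.2 RPM at 2 mM and 37.1, 26.2 and 29.9 RPM at 40 mM. Its 40 mM libraries spread widely but all lay above those at 2 mM, with a rise of 0.58 ± 0.091 (adjusted p = 1.83e-05). PDK1, which shuts pyruvate out of the citric acid cycle, rose by 0.38 ± 0.06, PGK1 by 0.24 ± 0.039, GPI by 0.22 ± 0.04, PKM by 0.16 ± 0.026 and LDHA, which makes lactate, by 0.15 ± 0.026. Quantile normalization put PKM at 0.30 and LDHA at 0.23. PGAM1 (0.03 ± 0.03) did not pass.

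In the list of hypoxia and HIF targets 9 of 32 were higher and 1 lower (31.2% called), and 5 were higher without replicate 2 at 2 mM (the lower count was 2 without replicate 2 at 2 mM or without replicate 1 at 40 mM). EGLN1, the prolyl hydroxylase that marks HIF for destruction and is itself induced by it, rose by 0.36 ± 0.043 (adjusted p = 1.45e-07), BNIP3L, a mitophagy receptor, by 0.21 ± 0.043, the histone demethylase KDM3A by 0.23 ± 0.055 and LOXL2, a collagen crosslinker, by 0.17 ± 0.032. ADM, the peptide adrenomedullin, fell by 0.53 ± 0.125, and VEGFA (0.05 ± 0.069) did not pass, and HIF1A itself (0.08 ± 0.036) passed only without replicate 1 at 40 mM (0.12, adjusted p = 0.0225). Members of this list that passed were thus mostly higher, and 22 did not pass. Its largest rise was 0.364, so SLC2A1, PDK1 and PFKFB4, described above with glycolysis, are not counted in it. In the respiratory chain 16 of 83 genes were lower and 2 higher. That was 21.7% called, against 17.5% of all tested genes and 30.2% in the highest level bin. The lower count was 10 without replicate 3 at 40 mM, and the higher count was 1 without replicate 3 at 2 mM. COX8A and UQCRH, small subunits of complexes IV and III, fell by 0.19 and 0.16, and NDUFA13, of complex I, rose by 0.24. In lipid synthesis SCD, the desaturase, rose by 0.15 ± 0.03, while FASN (−0.01 ± 0.028) did not pass.

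Epithelial and adhesion genes that passed were lower. Of 27 keratin and epithelial adhesion genes, 0 were higher, 9 were lower and 18 did not pass (33.3% called, and the higher count was 1 with no level filter or with voom weights), with a median of −0.13. KRT18, a simple-epithelium keratin, had 1114, 1160 and 1164 RPM at 2 mM and 899, 882 and 795 RPM at 40 mM, a fall of 0.42 ± 0.035 (adjusted p = 1.29e-10). Its partner KRT8 fell by 0.30 ± 0.026 and KRT19 by 0.31 ± 0.035. All 3 keratins are among the ductal line markers whose sum was lower at 40 mM, and its part in this list was not tested. MUC1, another of these markers, went from 20.3 to 25.5 RPM and did not pass (0.35). It passed with the replicate block (0.35, adjusted p = 0.000816). It also passed without replicate 1 or 3 at 2 mM or replicate 2 at 40 mM (0.50 to 0.52, adjusted p of 0.0334 to 0.0453). SOX9 went from 260 to 247 RPM. CLDN4, a tight junction claudin common in pancreatic tumours, had 161, 155 and 149.8 RPM at 2 mM and 103, 90.9 and 86.5 RPM at 40 mM and fell by 0.73 ± 0.048 (adjusted p = 7.12e-13). LLGL2, a polarity protein, fell by 0.47 ± 0.067 and ITGB4, the hemidesmosome integrin, by 0.31 ± 0.028. Mesenchymal genes that passed were mostly lower: of 34, 4 were higher, 14 were lower and 16 did not pass (52.9% called). The receptor kinase AXL fell by 0.34 ± 0.033, FSCN1, which bundles actin in protrusions, by 0.38 ± 0.056, and TAGLN2, a calponin-like protein, by 0.33 ± 0.031, while ITGB1 rose by 0.15 ± 0.027 and VIM stayed at −0.05 ± 0.026. Of the fibroblast markers, COL1A2 carried the higher sum at 40 mM, COL1A1 was under 1 RPM in both group means, DCN, LUM and PDGFRB had no row, and the part of that sum in this list was not tested. PLAUR, the urokinase receptor, had 44.1, 42.2 and 45.6 RPM at 2 mM and 31.1, 33.4 and 26.9 RPM at 40 mM and fell by 0.52 ± 0.058. Its ligand PLAU fell by 0.16 ± 0.035.

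Targets of growth factor and mechanical signalling that passed were mostly lower. Of 26 YAP/TAZ targets 13 were lower and 0 higher (50% called), with a median of −0.16 (the higher count was 1 without replicate 2 at 40 mM and 2 with quantile normalization), and of 31 MAPK feedback genes 11 were lower and 2 higher (41.9% called, and the higher count was 1 without replicate 2 or 3 at 2 mM or without replicate 2 at 40 mM). CCN1, a matrix protein induced by YAP and by serum, had 42.7, 42.2 and 42.1 RPM at 2 mM and 28.6, 27.8 and 27.6 RPM at 40 mM. The fall was 0.58 ± 0.051 (adjusted p = 3.33e-10), yet CCN2, its close relative, was at 0.09 ± 0.176 and did not pass. TEAD4, a DNA-binding partner of YAP, fell by 0.26 ± 0.056, the kinase LATS2 by 0.19 ± 0.048 and the adaptor AJUBA by 0.28 ± 0.065. ETV4, an ETS factor downstream of MAPK, fell by 0.61 ± 0.077 (adjusted p = 5.57e-07), EMP1 by 0.31 ± 0.027, EREG, an EGF receptor ligand, by 0.20 ± 0.033 and DUSP7, an ERK phosphatase, by 0.28 ± 0.043, while DUSP6 (−0.20 ± 0.181) and SPRY4 (−0.05 ± 0.036) did not pass. In the immediate-early list 15 of 34 were lower and 1 higher (47.1% called), with 9 lower without replicate 2 at 2 mM. JUNB fell by 0.41 ± 0.066, FOSL1 by 0.26 ± 0.039 and ZFP36, which destabilises cytokine mRNA, by 0.55 ± 0.091, JUND rose by 0.18 ± 0.048, and FOS (−0.11 ± 0.149) and EGR1 (−0.03 ± 0.074) did not pass.

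**Figure D4:**
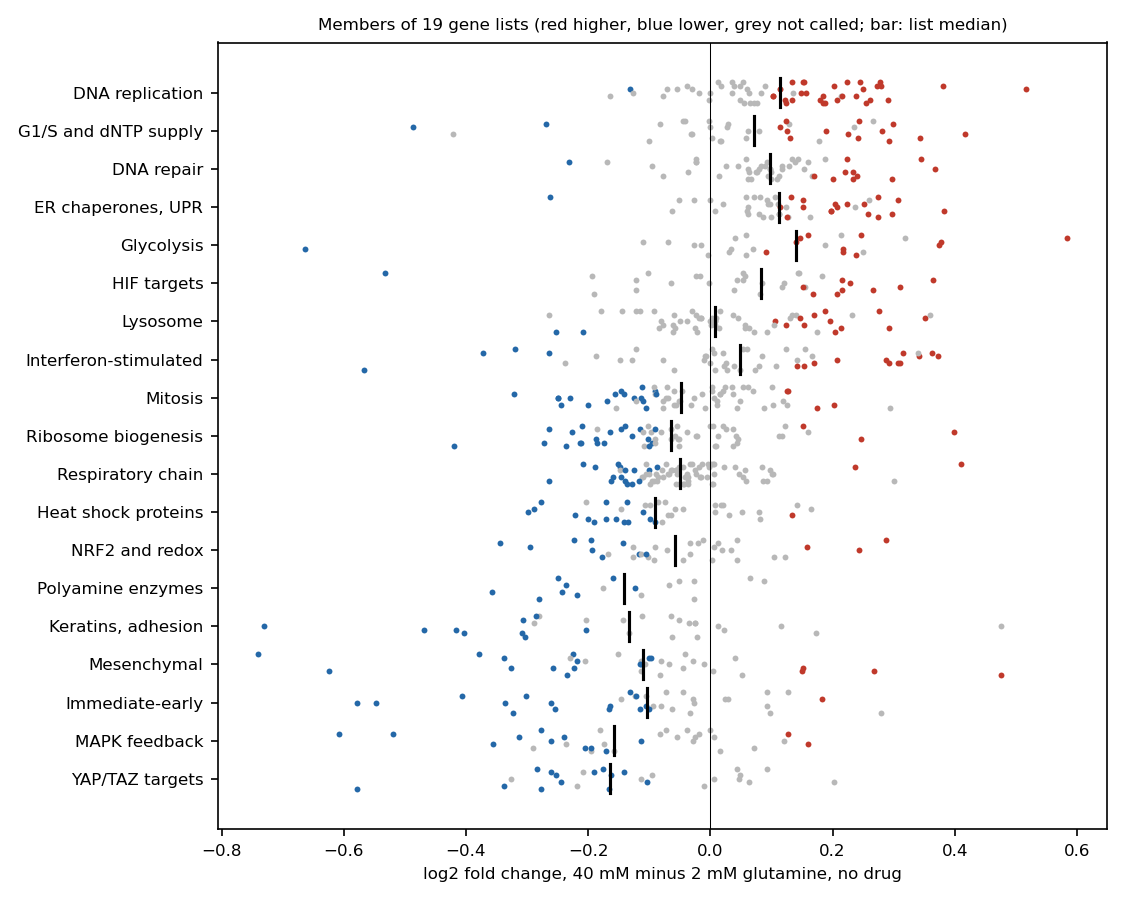
Each point is a tested member of 1 of 19 gene lists, placed by its log2 fold change, 40 minus 2 mM glutamine without gemcitabine, red where called higher, blue where called lower and grey otherwise, with black bars at list medians. Replication, endoplasmic reticulum and glycolysis genes lie mostly right of 0 and heat shock, epithelial and YAP/TAZ genes mostly left of it, and each list also holds genes that did not pass.

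Interferon-stimulated genes divided. Of 47 tested, 12 were higher, 4 were lower and 31 did not pass (34% called), with a median of 0.05. IFIT3, an antiviral protein, had 52.8, 46.5 and 50.2 RPM at 2 mM and 63.4, 59.9 and 60.3 RPM at 40 mM and rose by 0.29 ± 0.042 (adjusted p = 6.08e-06). IFIT2, OASL and OAS3, which act against viral RNA, rose by 0.21, 0.31 and 0.29, the factor IRF1 by 0.34, and the RNA sensor DDX58 by 0.37. IFIT1 stayed at −0.01 ± 0.042, and MX1 (0.03 ± 0.163) did not pass. The membrane proteins moved the other way: IFITM1, whose promoter carries the same element as IFIT3, had 137, 126 and 131 RPM at 2 mM and 91.6, 92.6 and 81.0 RPM at 40 mM and fell by 0.57 ± 0.046 (adjusted p = 8.14e-11), and BST2, tetherin, fell by 0.37 ± 0.09. IFITM2 and IFITM3 read −0.32 and −0.26, but the IFITM genes are near-identical and their reads uncertain. Of 28 NF-kappaB targets and cytokines (25% called, against 17.5% of all tested genes) 5 were lower, among them PTX3, a secreted pattern receptor (−0.48 ± 0.045), and CXCL1, a neutrophil chemokine (−0.29 ± 0.061), and 2 higher, CSF1 (0.18 ± 0.038) and NFKBIA (0.18 ± 0.041).

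Genes of the list of MYC and ribosome biogenesis that passed were mostly lower. Of 57 tested, 3 were higher, 20 were lower and 34 did not pass (40.4% called), and the lower count was 11 without replicate 2 at 2 mM, 13 without replicate 3 at 2 mM and 13 without replicate 3 at 40 mM, with 1 higher without replicate 2 at 2 mM. EBNA1BP2, a nucleolar protein needed for rRNA processing, had 247, 257 and 249.6 RPM at 2 mM and 186, 187 and 190.4 RPM at 40 mM and fell by 0.42 ± 0.032 (adjusted p = 1.87e-11). NPM1, nucleophosmin, fell by 0.27 ± 0.026 and FBL, the rRNA methylase, by 0.21 ± 0.034. MYC itself was called lower. That call ended without replicate 2 at 2 mM or replicate 2 or 3 at 40 mM or with quantile normalization (−0.08 to −0.10, adjusted p of 0.056 to 0.099). MXD4, a competitor of MYC for its partner, rose by 0.25 ± 0.051, and UBTF, the polymerase I factor, stayed at 0.01 ± 0.037. Among splicing factors SRSF6 had 149, 148 and 149 RPM at 2 mM and 181, 195 and 194 RPM at 40 mM and rose by 0.35 ± 0.034 (adjusted p = 1.71e-09), SRSF2 rose by 0.23 ± 0.034, and HNRNPA2B1 fell by 0.19 ± 0.025. Of 42 splicing factors tested, 4 were higher, 6 were lower and 32 did not pass (23.8% called, against 17.5% of all tested genes).

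Several lysosomal hydrolases rose. Of 59 lysosome and autophagy genes, 12 were higher, 2 were lower and 45 did not pass (23.7% called, against 17.5% of all tested genes), although the median was 0.01 (the lower count was 1 without replicate 1 at 2 mM). The protease CTSD had 874, 874 and 893 RPM at 2 mM and 1049, 1011 and 984 RPM at 40 mM and rose by 0.20 ± 0.028, HEXA, which cuts sugars from gangliosides, by 0.29 ± 0.044 and LAMP1, a membrane protein, by 0.19 ± 0.031. Those called higher were enzymes, membrane proteins and proton pump subunits, whereas the autophagy genes SQSTM1 (0.01 ± 0.03) and MAP1LC3B (0.06 ± 0.035) did not pass. Among 34 NRF2 and redox genes 3 were higher, 9 were lower and 22 did not pass (35.3% called, and the higher count was 5 with quantile normalization). TKT, transketolase, fell by 0.30 ± 0.028 (adjusted p = 1.63e-09), PRDX1, a peroxidase, by 0.19 ± 0.032 and SRXN1, which repairs it, by 0.22 ± 0.037, while PGD of the same pentose pathway as TKT rose by 0.16 ± 0.034 and NQO1, a standard NRF2 target, did not pass (0.04 ± 0.027) except with quantile normalization (0.08, adjusted p = 0.0433).

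The glutamine response was next set beside that of cells given 0.5 µM gemcitabine, a comparison that shares no library with the one above. With the drug 1102 genes were higher and 1663 lower at 40 mM, 21.6% of those tested. Across 12789 genes the responses in the 2 drug states correlated with Pearson's r of 0.483 and Spearman's rho of 0.472, a description only, since genes are not independent. Of the 1076 genes higher without drug 36.5% were also higher with it and 19 were lower. Of the 1166 lower without drug 56.3% were also lower with it and 10 were higher. The difference between the responses passed for 281 genes, 2.2% of those tested, 188 of them more positive and 93 more negative without the drug. That count fell to 165 without replicate 1 at 2 mM and 165 without replicate 3 at 40 mM in untreated cells, and to 155, 157 and 180 without replicate 1, 2 or 3 at 2 mM and 174 without replicate 1 at 40 mM in treated cells.

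The difference passed for more of the glycolysis list than of the replication or mitosis lists. In 13 of 27 the responses differed, against 2.2% of all tested genes, and in each of these the change without the drug lay above that with it. PFKFB4 changed by −0.24 ± 0.091 with the drug, 0.83 ± 0.129 below its rise without it (adjusted p = 0.000217). SLC2A1 was at −0.03 ± 0.041 with the drug (difference 0.40 ± 0.058, adjusted p = 0.000112), PKM at −0.11 ± 0.026 (difference 0.27 ± 0.036, adjusted p = 4.71e-05) and LDHA at −0.12 ± 0.026 (difference 0.27 ± 0.037, adjusted p = 6.37e-05). DNA replication followed, with 16 of 60. CDC6, at 104 ± 3.10 to 108 ± 5.97 RPM from 2 to 40 mM with the drug (SD, n = 3), changed by 0.06 ± 0.048 there, a difference of 0.46 ± 0.067 (adjusted p = 0.000119). PCNA changed by −0.14 ± 0.036 with the drug (difference 0.34 ± 0.05, adjusted p = 0.000119) and MCM5 by −0.13 ± 0.037 (difference 0.38 ± 0.053, adjusted p = 6.37e-05). In the mitosis list the difference passed for 11 of 62, or 5 without replicate 1 at 2 mM with the drug. CKS2 changed by −0.09 ± 0.041 with the drug, a difference of −0.24 ± 0.058 (adjusted p = 0.0213), which did not pass without replicate 2 at 2 mM without the drug, replicate 1 at 2 mM with it or replicate 3 at 40 mM with it (adjusted p of 0.0557, 0.0847 and 0.0532).

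Single genes of other kinds differed too. SLC20A1, a phosphate carrier, fell without the drug by 0.30 ± 0.032 and was at 0.13 ± 0.032 with it, the difference with the smallest p, at −0.43 ± 0.045 (adjusted p = 4.66e-07). SRSF6 was at −0.05 ± 0.034 with the drug (difference 0.40 ± 0.048, adjusted p = 7.26e-06). The differences passed for 9 of 42 splicing factors, against 2.2% of all tested genes, shares not matched for level. IFIT1 did not pass without the drug and was at 0.41 ± 0.042 with it (difference −0.41 ± 0.06, adjusted p = 0.000112). EIF4A2, a helicase of translation initiation, fell by 0.16 ± 0.028 without the drug and was at 0.10 ± 0.028 with it (difference −0.27 ± 0.039, adjusted p = 0.00012). RIMKLA was at −0.20 ± 0.106 with the drug (difference 0.97 ± 0.15, adjusted p = 0.000217) and CLDN4 at −0.33 ± 0.048 (difference −0.40 ± 0.067, adjusted p = 0.000523). For some of the surest responses the difference did not pass: TGM2 changed by −0.47 ± 0.029 with the drug (difference −0.01 ± 0.041) and STMN3 by −0.41 ± 0.028 (difference −0.02 ± 0.04).

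**Figure D5:**
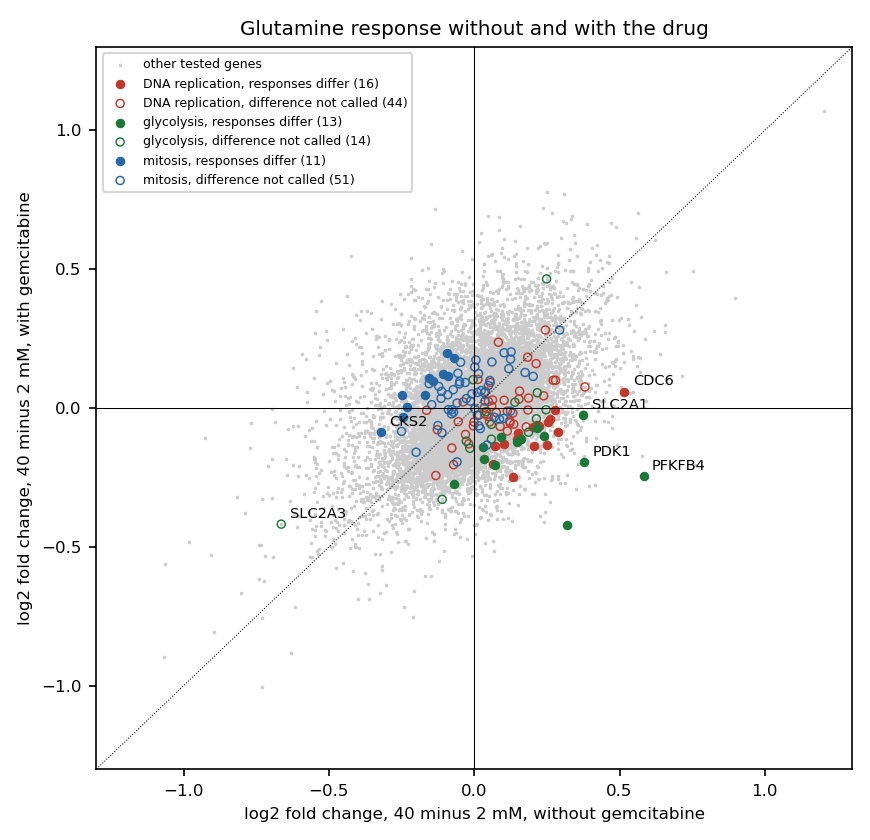
Each point is a tested gene placed by its log2 fold change, 40 minus 2 mM glutamine, without gemcitabine (x axis) and with it (y axis), and the dotted line marks equal responses. Filled points are the 16 replication, 13 glycolysis and 11 mitosis genes whose responses differ (adjusted p under 0.05), with the replication and glycolysis genes below the line and the mitosis genes above it.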

How the data were processed

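For each of 12 libraries the deposited table lists 15090 gene symbols with log2 values, the columns named in its header as the sample titles name them. The authors' deposited log2 values equal the log2 of RPM plus a pseudocount of 1, as worked out from the values: in every library 100% of RPM values were whole multiples of 1 read within 0.05 read. Not given in the sources used here are the aligner, counting program, strand setting and genome build. Coordinates of measured genes are left out, and the promoter coordinates are those of RefSeq. Antisense and overlapping genes cannot be told apart.

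Genes at 1 RPM or more in at least 3 of 12 libraries entered a limma fit (limma 3.58.1 under R 4.3.3) of 4 group means over the 12 libraries with a mean-variance trend, two-sided, Benjamini-Hochberg over 12789 genes, threshold 0.05. The median depth of a tested gene was 708 reads. Replicates differed by more than sampling noise (chi-square per degree of freedom 3.12 to 5.43), so each counts once. The fits were tested on simulated data. A count test was planned only had the unit been counts, and voom weights on the recovered reads, one of the alternatives, called 1051 genes higher and 1150 lower.

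Some list members are counted but not reported here by name. Members, gene lists and tests were chosen with earlier results of these data known. Named genes are the 15 largest rises and 15 largest falls (called, groups apart, at least 5 RPM), the 10 smallest p, up to 4 members a list by p plus members a role sentence needs, the 10 smallest p of the difference between drug states and the genes at the filter's edge. IFITM, histone, HSPA1 and similar near-identical genes are uncertain. Alternatives were other filters, pseudocounts, scalings and variance models, the 6 libraries alone, a replicate block and leaving out each library.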

Additional observations from a re-analysis of the deposited data

Results flagged for a closer look

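The glutamine response of 14 genes named above differed between cells without and with gemcitabine in the test of the difference itself (limma, adjusted p under 0.05, 3 libraries in each of 4 groups), and their adjusted p-values stand with them above. As log2 changes without minus with the drug, the difference was 0.46 for CDC6, 0.27 for LDHA, 0.38 for MCM5, 0.34 for PCNA, 0.83 for PFKFB4, 0.27 for PKM, 0.97 for RIMKLA, 0.40 for SLC2A1 and 0.40 for SRSF6. It was −0.24 for CKS2, −0.40 for CLDN4, −0.27 for EIF4A2, −0.41 for IFIT1 and −0.43 for SLC20A1. RIMKLA and PFKFB4 had the differences of greatest size among these 14.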

How the results depend on the processing

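Across level filters, pseudocounts, scalings, variance models and the fit of the 6 libraries alone, 851 to 1137 genes were higher and 950 to 1217 lower. No gene called in both the reported fit and an alternative changed sign, but these fits share libraries, which makes a change of sign unlikely beforehand. Leaving out each of the 6 libraries in turn gave 795 to 956 higher and 881 to 1035 lower, the lowest number higher without replicate 3 at 40 mM and the lowest number lower without replicate 2 at 2 mM. The count of genes whose response differed between drug states was the least stable, 155 to 366 when each of the 12 libraries was left out and 212 (quantile normalization) to 331 (robust moderation) under the other settings, and the cause was not tested. Quantile normalization gave 50.1% of calls as higher, against 48.3% or less with the other changes of pseudocount, scaling or variance model. Libraries with the same replicate number did not deviate together, with correlations of 0.006, 0.033 and 0.039 without the drug, so the numbers were not taken to pair the samples. With the replicate block 1102 genes were higher, 1190 lower and 306 differed between drug states. At low level the depth limits what can be called, as the median standard error of 0.157 in the lowest of 4 level bins shows.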

Other observations

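Genes outside the lists above changed too, and those given here were chosen after their values were seen. TFRC, the receptor that takes up transferrin iron, stood at 558, 575 and 547 RPM at 2 mM and 681, 706 and 735 RPM at 40 mM, a rise of 0.34 ± 0.029. PGM1, which links glycogen to glycolysis, rose by 0.40 ± 0.038 and GSN, which severs actin, by 0.44 ± 0.036. CHPF, which extends chondroitin chains, rose by 0.44 ± 0.052 and CA11 by 0.48 ± 0.083. CAV1, the coat protein of caveolae, stood at 219.5, 233 and 227 RPM at 2 mM and 173, 169.9 and 178 RPM at 40 mM, a fall of 0.38 ± 0.033. FHL2, an adaptor at focal adhesions, fell by 0.47 ± 0.045, FGFR3, a growth factor receptor, by 0.40 ± 0.057, and SOCS3, a brake on cytokine signalling, by 0.47 ± 0.083. CHKA, the first kinase of phosphatidylcholine synthesis, fell by 0.45 ± 0.069 and HDAC5, a histone deacetylase, by 0.41 ± 0.073. In each of these 11 genes the 3 libraries of one group all lay on one side of the 3 of the other, as they did in 31.1% of all tested genes.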
